A study of Mus musculus with 47 samples.

Results

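Villi of the small intestine from mice fed the diet NWD2 were compared with villi from mice fed NWD1. The comparison holds 7 of the 47 arrays of the series, chosen by their labels alone: 3 of villus NWD2 and 4 of villus NWD1. All 7 came from wild-type C57BL/6 mice, labelled with an age of 1 year, that had received their diet from weaning for 1 year. RNA of isolated villi was hybridised to Affymetrix arrays, and villi on the control diet Ain76A (4 arrays) and crypts on NWD1 and NWD2 (4 arrays each) of the same age and genotype serve as reference. A villus array is a bulk measurement of epithelium with the cells that come off with it, and the labels leave unsaid whether each array of a group is a different mouse. The p-values of single genes then measure only the spread within groups, estimated over all 47 arrays, other genotypes and younger mice included. That spread may be technical.

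NWD1 is a purified diet that models a Western intake. It is high in fat and low in calcium, vitamin D, methyl donors and fibre. NWD2 is NWD1 with calcium and vitamin D3 raised, so the comparison asks what that addition changes in differentiated epithelium that sees the rest of the Western diet. Vitamin D acts on this tissue through the vitamin D receptor, which switches on genes of calcium uptake and vitamin D breakdown in enterocytes. Villi consist mainly of absorptive enterocytes, while Paneth cells, which secrete antimicrobial proteins, normally sit at the base of crypts.

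The 3 genes with the smallest p-values, H2-Aa, Cd74 and H2-DMa, belong to MHC class II antigen presentation, and each was lower on all 3 NWD2 arrays than on any NWD1 array. After Benjamini-Hochberg adjustment of limma's test over 8650 genes, none passed 0.05 (0%), and the lowest adjusted p was 0.0535, for H2-Aa and Cd74. At an unadjusted p under 0.05 there were 238 genes (2.75%), 97 higher and 141 lower in NWD2. When each of 18052 measured probe sets was tested on its own, 4 passed, all lower in NWD2: 3 probe sets of H2-Aa and 1 of Cd74. Over all genes the median log2 difference (NWD2 minus NWD1, as throughout) was 0.01, and the median SE of a gene was 0.28. All 3 NWD2 arrays lay above all NWD1 arrays for 316 genes (3.65%) and below them for 239 (2.76%), together 6.42% of the genes tested. Under the scaling as deposited, without quantile normalization, the corresponding numbers were 177 (2.05%) and 368 (4.26%), and 91 genes higher and 210 lower at an unadjusted p under 0.05. The balance of higher and lower genes therefore depended on the scaling, and the median of all genes moved by less than 0.1. The shares of the quantile-normalized data are the background given beside the gene groups.

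The arrays themselves varied within each diet in how villus-like they were. A crypt-villus score, the mean log2 level of 78 genes higher in crypts minus that of 108 higher in villi (both chosen on wild-type arrays of younger mice), was -2.53 to -1.92 on the Ain76A villus arrays. It was -0.42, -0.45, -1.71 and -2.13 on NWD1 arrays 1 to 4, and 0.31, -1.43 and -1.36 on NWD2 arrays 1 to 3. NWD1 arrays 1 and 2 and NWD2 array 1 therefore carried more crypt-type signal than the rest. The group means of the score differed by 0.35 (exact permutation p = 0.686, two-sided, over 35 regroupings), and the smallest p that 3 arrays against 4 allow is 0.0571. Without NWD2 array 1 the difference was -0.22. The mean level of 8 distal small intestine markers was 11.38 on NWD2 array 1, and 12.78 and 12.89 on NWD2 arrays 2 and 3. On NWD1 it was 12.61 to 12.82. For 14 proximal markers NWD2 array 1 was at 13.24, within the NWD1 range of 12.78 to 13.61. A difference in gut region between the arrays was not tested. Each of the 7 arrays had 21280 to 22441 measured probe sets (difference 209, exact permutation p = 0.629). Enterocyte markers were present at a mean log2 level of 13.77 to 14.73 on all 7, while 10 of 14 stromal fibroblast markers were blank on all 7. The gene groups and genes that moved most without these arrays are given with and without them.

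MHC class II molecules show peptides to helper T cells, and enterocytes of the small intestine can carry them as well as dendritic cells, macrophages and B cells. Of 11 matched genes of this list 5 could be tested. All 5 differences were negative, 4 at an unadjusted p under 0.05 against 1.63% of all genes, and for the same 4 all NWD2 arrays lay below all NWD1 arrays against 2.76%. The median difference of the 5 was -2.55, against 0.01 over all genes. In bulk RNA, fewer cells of a type and less RNA per cell cannot be told apart.

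Cd74 encodes the invariant chain, which escorts class II molecules to the endosome. Its log2 level was 14.83, 14.64, 14.60 and 14.77 on the NWD1 arrays and 9.48, 12.45 and 11.02 on the NWD2 arrays. The NWD1 arrays lay within a narrow band, and the highest NWD2 array stayed below it. The difference was -3.73 ± 0.75 (SE), a 13.2-fold lower mean signal (limma adjusted p = 0.0535). On Ain76A villi Cd74 was 14.89, 12.83, 14.60 and 13.65, with arrays 1 and 3 at the NWD1 level and arrays 2 and 4 between NWD1 and NWD2.

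H2-Aa encodes the alpha chain of the class II molecule I-A. Its levels were 14.42, 14.11, 14.53 and 14.33 on NWD1 and 9.82, 12.24 and 11.18 on NWD2. The order of the 3 NWD2 arrays was the same as for Cd74, with array 1 lowest and array 2 highest. The difference was -3.27 ± 0.65 (limma adjusted p = 0.0535), and 3 further probe sets of the gene gave -4.16, -3.93 and -3.02. H2-Eb1, the beta chain of I-E, stood at 12.91, 12.72, 12.84 and 12.59 on NWD1 and at 8.64, 11.47 and 10.54 on NWD2. Its difference was -2.55 ± 0.63 (limma adjusted p = 0.242). The alpha chain of I-E, H2-Ea, was blank on 6 of the 7 arrays.

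**Figure D1:**
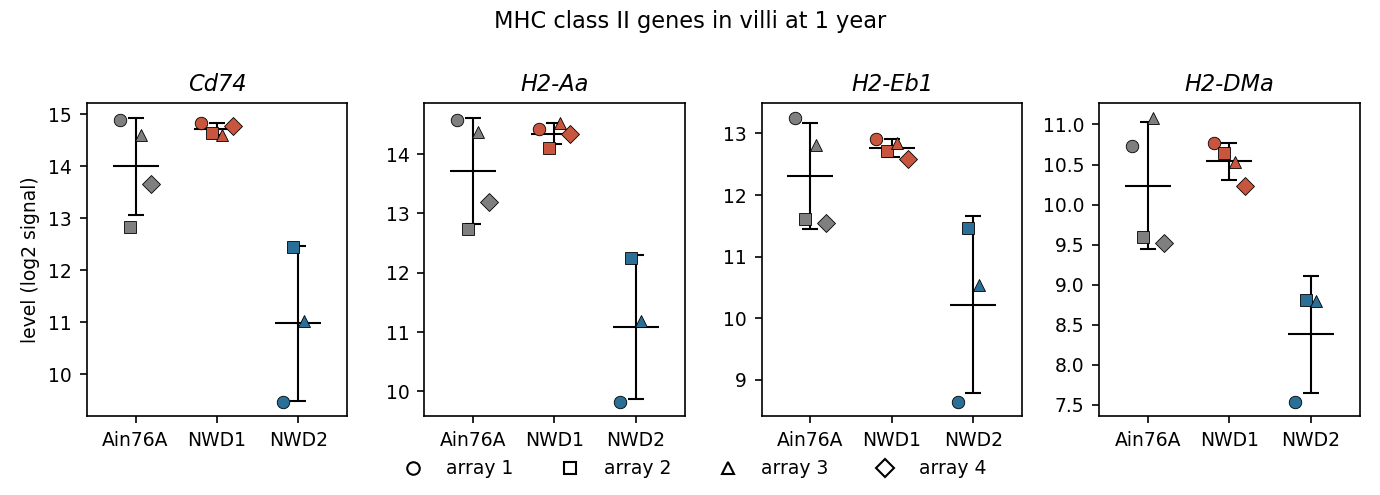
Normalized log2 levels of Cd74, H2-Aa, H2-Eb1 and H2-DMa on each villus array of the Ain76A, NWD1 and NWD2 groups at 1 year. Marker shapes give the array number, bars the mean and SD. All 3 NWD2 arrays lie below all 4 NWD1 arrays in each panel, and Ain76A arrays 2 and 4 lie below arrays 1 and 3.

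H2-DMa belongs to the exchange factor that loads peptide onto class II. It was 10.77, 10.64, 10.53 and 10.23 on NWD1 and 7.54, 8.81 and 8.79 on NWD2, a difference of -2.16 ± 0.48 (limma adjusted p = 0.193). Another probe set of H2-DMa, at a lower level, differed by only -0.10, so the probe sets of this gene disagree. Ctss, the protease that trims the invariant chain and is active in many cell types, differed by -0.02 ± 0.23 with a 95% interval of -0.49 to 0.45. H2-Ab1 and Ciita were chosen after their values were seen. H2-Ab1, the partner chain of H2-Aa, was 12.60 to 13.05 on the NWD1 arrays, blank on NWD2 array 1, and 11.09 and 10.58 on the other NWD2 arrays. Ciita, the master transactivator of class II genes, had a probe set measured on all 4 NWD1 arrays (6.92 to 7.38) and on no NWD2 array. Another Ciita probe set, measured on all 7, differed by -0.58 ± 0.31, with overlapping groups.

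NWD2 array 1 had the lowest level of each of the 5 tested class II genes, and the differences were smaller without it. Without that array Cd74 differed by -2.97 and H2-Aa by -2.64, with a limma adjusted p of 0.776 for each. Without NWD2 array 2 both passed, with a limma adjusted p of 0.0177 for each. Without NWD1 arrays 1 and 2 and NWD2 array 1 together, 2 arrays a group were left. In that setting 5 of 6 tested class II genes were lower at an unadjusted p under 0.05, against 165 of all 8544 genes. In crypts of the same diets Cd74 differed by -2.14 and H2-Aa by -1.33. The crypts share no array with the villi, but the labels do not say whether they share mice. The villus difference minus the crypt difference was -1.59 for Cd74 and -1.94 for H2-Aa, and neither passed adjustment (over 8323 genes, 0 passed).

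Other markers of antigen-presenting cells were followed beside these genes. Of 18 matched myeloid markers 7 were blank on all 7 villus arrays, among them the complement genes C1qa, C1qb and C1qc that mark resident macrophages. For the 8 that could be tested the median difference was -0.33 and none reached an unadjusted p of 0.05. The mean level of the 7 myeloid markers measured on all villus arrays was 7.93 to 8.45 on NWD1 and 7.66 to 8.15 on NWD2, so the groups overlapped. Of the B and plasma cell markers only Jchain and Xbp1 could be tested, at -0.52 and -0.07. The part of such cells in the class II difference was not tested. The 14 MHC class I genes tested had a median of 0.02, and of 21 interferon response genes none reached an unadjusted p of 0.05 (median -0.08). Of 9 T and NK cell genes all 9 were lower in NWD2 with a median of -0.40, against 4104 of all 8650 genes below 0. None had an unadjusted p under 0.05. For 2 of the 9 all NWD2 arrays lay below all NWD1 arrays, against 2.76% of all genes. The largest difference of the 9, that of the granzyme Gzma, was -0.81 ± 0.49.

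Class II promoters share a short upstream module that ends in a CCAAT box. To show it in 2 of the class II genes that lay low, the RefSeq promoters of H2-Aa and H2-Eb1 are printed. They run from 250 bases before to 50 after the start (build GRCm38.p6), with the letters GATTGG on either strand in capitals. The promoter of Cd74, the gene with the most negative difference, was not examined. H2-Aa lies at chr17:34287774-34288073 on the minus strand and H2-Eb1 at chr17:34305617-34305916 on the plus strand.
H2-Aa: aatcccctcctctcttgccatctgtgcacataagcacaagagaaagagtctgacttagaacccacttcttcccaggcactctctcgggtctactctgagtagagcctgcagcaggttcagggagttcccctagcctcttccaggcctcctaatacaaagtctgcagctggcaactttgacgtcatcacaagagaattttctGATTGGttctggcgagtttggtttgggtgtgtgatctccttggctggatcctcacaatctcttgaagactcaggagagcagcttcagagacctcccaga
H2-Eb1: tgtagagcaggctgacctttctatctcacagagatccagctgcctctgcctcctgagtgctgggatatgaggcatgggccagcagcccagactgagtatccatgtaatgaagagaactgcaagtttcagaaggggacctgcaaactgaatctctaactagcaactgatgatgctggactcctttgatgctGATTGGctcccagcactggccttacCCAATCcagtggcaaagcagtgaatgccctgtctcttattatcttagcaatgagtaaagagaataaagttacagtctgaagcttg
The match in H2-Aa begins at -49 from the start, and those in H2-Eb1 at -60 and, on the opposite strand, at -35. GATTGG occurs on either strand in 16.1% of 32851 mouse promoters of this length, so its presence describes these promoters and is no evidence of use.

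Paneth cell genes had lower levels in NWD2 villi, and NWD1 arrays 1 and 2 stood highest. All 6 tested members were below 0 and at an unadjusted p under 0.05 (1.63% of all genes), with a median of -1.69. For 4 of the 6 the groups did not overlap (2.76% of all genes). None passed the adjustment.

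Defa39 is an alpha-defensin, one of many near-identical peptides, so its probe set may read several family members. Its level was 15.07, 14.76, 13.06 and 12.61 on NWD1 and 12.48, 11.77 and 11.47 on NWD2. NWD1 arrays 1 and 2 were high, and NWD1 array 4 lay just above NWD2 array 1. The difference was -1.97 ± 0.53 (limma adjusted p = 0.519). Lyz1, the Paneth cell lysozyme, showed the same order at 15.89, 15.60, 14.27 and 13.98 against 13.62, 13.23 and 13.10. It differed by -1.62 ± 0.44 (limma adjusted p = 0.519), while a further, weakly measured probe set gave -0.38. Lyz2, the macrophage lysozyme, is a close paralogue and differed by -0.75.

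Itln1, the lectin intelectin, differed by -1.88 ± 0.55 and the microbicidal ribonuclease Ang4 by -1.69 ± 0.58. Mptx1, a pentraxin made by Paneth cells, differed by -1.68 ± 0.71 and the secreted phospholipase Pla2g2a by -0.91 ± 0.33. For Mptx1 and Pla2g2a NWD1 array 3 lay among the NWD2 arrays. Mmp7, the protease that activates defensins, was 8.62 to 10.57 on NWD1 and was measured on NWD2 arrays 1 and 3 at 7.65 and 8.03. On Ain76A villi Defa39 averaged 11.37 ± 1.32 and Lyz1 12.51 ± 1.13 (SD, n = 4), and all 4 arrays lay below every NWD1 array for both genes.

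**Figure D2:**
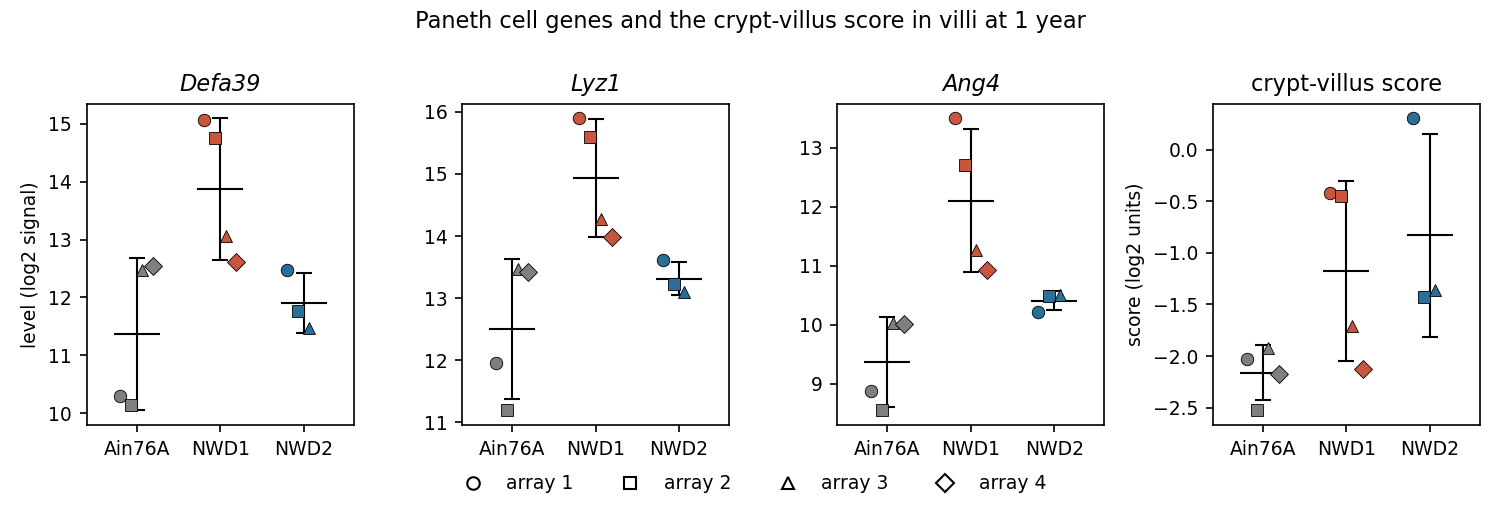
Normalized log2 levels of Defa39, Lyz1 and Ang4, and the crypt-villus score (log2 units), on each villus array at 1 year. Marker shapes give the array number, bars the mean and SD. NWD1 arrays 1 and 2 are highest for the 3 genes and share a score near -0.4, while NWD2 array 1 has the highest score and low Paneth levels.

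NWD1 arrays 1 and 2, highest for Paneth genes, also had crypt-villus scores above -1. NWD2 array 1 had the highest score of the 7 and a mean Paneth level of 11.63, below every NWD1 array (12.28 to 14.45). With the score as a covariate all 6 genes kept their sign and an unadjusted p under 0.05, with a median of -1.89. In that setting 142 of all 8650 genes were below at that p. Paneth genes were not kept out when the score genes were chosen. The covariate may therefore hold some of them, and this fit cannot separate Paneth genes from crypt-type signal. Without NWD1 arrays 1 and 2 and NWD2 array 1, all 6 were still negative, with a median of -0.76, and none reached an unadjusted p of 0.05. Without NWD1 array 1 alone the median was -1.27. In crypts, where Paneth cells reside, the differences were -0.84 for Defa39 and -0.32 for Lyz1.

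Metallothioneins, small proteins that bind zinc and copper, had lower levels in NWD2 villi, though neither passed the adjustment. Mt1 was 12.30, 13.55, 14.88 and 12.27 on NWD1 and 11.21, 11.11 and 11.93 on NWD2. Mt2 was 11.34, 12.45, 13.43 and 11.61 on NWD1 and 9.74, 9.12 and 10.74 on NWD2. In both genes NWD1 array 3 was highest, the groups did not overlap, and every measured Ain76A villus array lay below every NWD1 array (Mt1 11.24 ± 0.62, SD, n = 4). The differences were -1.83 ± 0.45 for Mt1 (limma adjusted p = 0.242) and -2.34 ± 0.64 for Mt2 (limma adjusted p = 0.519). In crypts the same diets gave -1.44 and -1.32. Mt2 was 11.38, 12.45, 13.38 and 11.19 on NWD1 crypt arrays 1 to 4, close to the villus arrays of the same number. The crypt values may therefore not be an independent repeat. The remaining 10 tested genes of the zinc list, transporters and the metal-sensing factor Mtf1, ranged from -0.50 to 0.22 and none reached an unadjusted p of 0.05.

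Metallothionein genes are neighbours and are switched on through metal response elements, whose core is TGCACNC or TGCGCNC. The RefSeq promoters of Mt1 (chr8:94178839-94179138, plus strand) and Mt2 (chr8:94172368-94172667, plus strand), build GRCm38.p6, are shown because the 2 genes lay low on the same arrays. Capitals mark either core on either strand.
Mt1: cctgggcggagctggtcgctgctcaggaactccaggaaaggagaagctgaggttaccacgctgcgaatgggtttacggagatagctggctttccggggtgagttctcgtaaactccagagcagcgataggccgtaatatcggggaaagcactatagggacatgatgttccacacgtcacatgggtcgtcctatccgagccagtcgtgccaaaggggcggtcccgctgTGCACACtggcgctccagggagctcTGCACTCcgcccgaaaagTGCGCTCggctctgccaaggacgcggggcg
Mt2: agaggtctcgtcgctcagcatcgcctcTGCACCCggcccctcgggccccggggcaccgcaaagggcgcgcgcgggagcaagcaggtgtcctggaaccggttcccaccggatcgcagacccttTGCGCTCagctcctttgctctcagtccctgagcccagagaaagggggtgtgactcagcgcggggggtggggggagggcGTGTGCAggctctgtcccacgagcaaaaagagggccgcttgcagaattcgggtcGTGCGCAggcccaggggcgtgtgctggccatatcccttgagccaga
Mt1 holds 3 such cores, beginning at -23, 3 and 21 from the start. Mt2 holds 4, beginning at -223, -128, -50 and 5. These positions count from the RefSeq start used here, and other start sites of the genes were not examined. At least 3, the count in Mt1 itself, occur in 1.97% of mouse promoters of this length. The presence of the cores describes these promoters and is no evidence of use. The probe sets of Mt1, H2-Aa and Lyz1 carry suffixes by which Affymetrix marks possible matches to other transcripts.

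Of 14 tested genes of vitamin D and calcium handling none reached an unadjusted p of 0.05, with a median of -0.23 and 6 above and 8 below 0. The groups did not overlap for 2 of the 14 (6.42% of all genes), Cyp2r1 above and Rxra below. Without NWD2 array 1, 1 gene in each direction reached an unadjusted p of 0.05. In that setting 137 of all 8822 genes did so above 0 and 142 below. The median of the list was then -0.06. Vdr, the vitamin D receptor, was 11.67, 11.27, 12.03 and 11.52 on NWD1 and 11.46, 11.77 and 11.96 on NWD2. The groups overlapped, with a difference of 0.11 ± 0.18 and a 95% interval of -0.27 to 0.48. Rxra, its partner receptor, differed by -0.27 ± 0.27.

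Genes that vitamin D is known to switch on in the intestine were measured unevenly. S100g, the calcium-binding calbindin of enterocytes, was measured on NWD1 arrays 3 and 4 (11.70 and 13.58) and NWD2 array 1 (7.38) and blank on the other 4. Cyp24a1, which breaks down the active hormone, was blank on all 7 arrays. Atp2b1, the pump that passes calcium to the blood, was 11.96, 11.70, 12.92 and 13.04 on NWD1 and 11.68, 11.67 and 11.71 on NWD2. Its NWD2 arrays lay close together while NWD1 arrays 3 and 4 were high, and the difference was -0.72 ± 0.61.

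Among the transporters, the drug efflux pump Abcb1a differed by -0.74 ± 0.45, and by -0.21 without NWD2 array 1, and the manganese exporter Slc30a10 by -0.75 ± 0.56. The phosphate carriers went either way, Slc20a1 at -0.65 ± 0.39 (-0.37 without NWD1 array 4) and Slc34a2 at 0.48 ± 0.59. Slc34a2 was 10.03 on NWD2 array 1 against 13.14 and 13.35 on the other NWD2 arrays, and 11.24 to 12.27 on NWD1. Of the enzymes, Cyp2r1, which makes 25-hydroxyvitamin D, was 6.20 to 6.87 on the 3 NWD1 arrays that measured it and 7.38, 7.44 and 7.03 on NWD2, a difference of 0.67 ± 0.40. Cyp27a1 differed by -0.33 ± 0.53 and Cyp3a11, a target of several nuclear receptors, by -0.19 ± 0.55. The pore-forming claudins of calcium passage, Cldn2 and Cldn12, gave -0.31 ± 0.41 and 0.24 ± 0.28.

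Receptors and ligands of Wnt and ephrin signalling came next. All 5 tested members were above 0, where 52.6% of all genes were, and none reached an unadjusted p of 0.05. Fzd5, the Wnt receptor through which Paneth cells mature, was 11.66, 11.16, 11.10 and 11.14 on NWD1 and 11.51, 11.43 and 11.60 on NWD2, with a difference of 0.25 ± 0.37. The co-receptor Lrp6 gave 0.45 ± 0.26, Fzd7 0.34 ± 0.34 and the ligand Efnb2 0.34 ± 0.27. Ephb3, which positions Paneth cells, was blank on all 7. The tumour suppressor Apc differed by -0.01 ± 0.21. Cdkn1a, the cell cycle inhibitor p21, was 12.74, 12.81, 13.22 and 13.84 on NWD1 and 12.23, 12.55 and 12.39 on NWD2. All NWD2 arrays lay below all NWD1 arrays, with a difference of -0.76 ± 0.27 (limma adjusted p = 1).

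**Figure D3:**
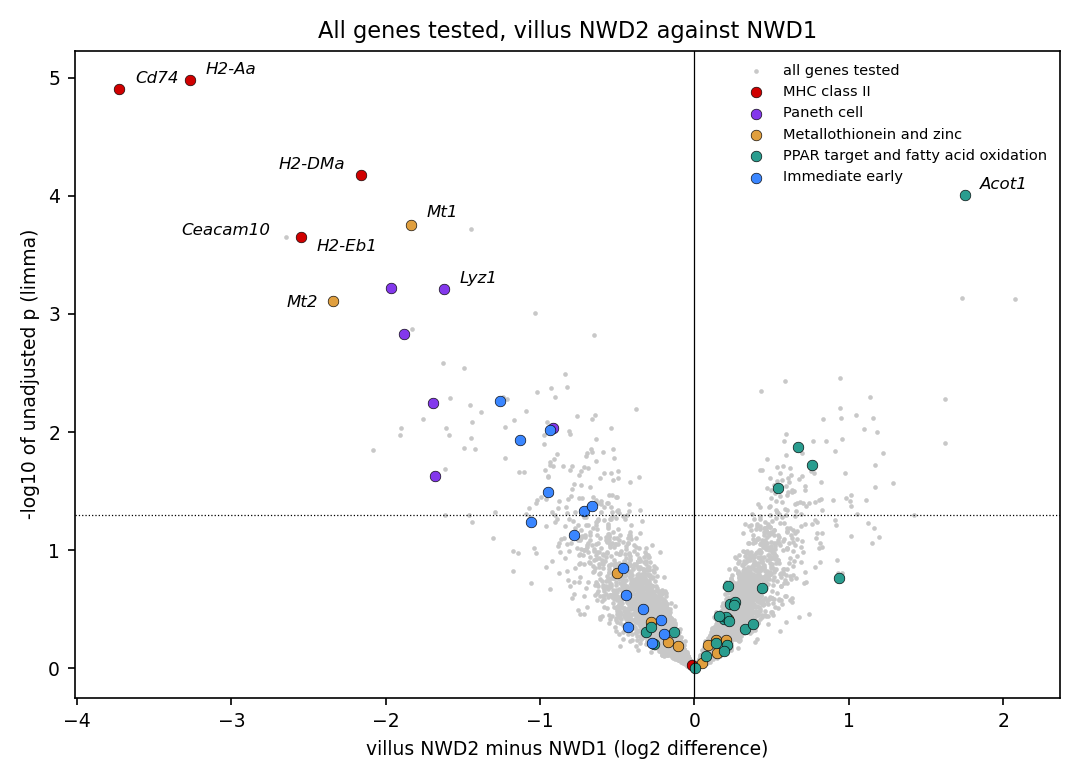
For each of the 8650 genes tested, the log2 difference of villus NWD2 minus NWD1 (horizontal) against -log10 of the unadjusted limma p (vertical), with 5 gene lists coloured. The dotted line marks an unadjusted p of 0.05. Class II and Paneth genes and Mt1 and Mt2 lie at the left, and Acot1 lies furthest up on the right.

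The genes higher in NWD2 with the smallest p-values were of mixed function. Acot1, the gene with the smallest of them, which releases fatty acids from coenzyme A and is a known PPAR target, was 6.74, 6.77, 5.99 and 6.09 on NWD1 and 8.57, 9.07 and 6.80 on NWD2. NWD2 array 3 lay just above the highest NWD1 array, and all 4 Ain76A villus arrays were blank. The difference was 1.75 ± 0.38, a 3.37-fold higher mean signal (limma adjusted p = 0.214), and without NWD2 array 3 it was 2.43 (adjusted p = 0.00146). In crypts it was 1.86 ± 0.35.

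Of 25 tested genes of PPAR targets and fatty acid oxidation 21 were above 0 (52.6% of all genes), 4 at an unadjusted p under 0.05 (1.12% of all genes), and the median was 0.22. For 7 all NWD2 arrays lay above all NWD1 arrays (3.65%). Acadl, the long-chain acyl-CoA dehydrogenase, was 12.29, 12.27, 12.51 and 12.77 on NWD1 and 13.37, 13.07 and 12.95 on NWD2, a difference of 0.67 ± 0.26. The thiolase Acaa2 gave 0.76 ± 0.31 and the lipid droplet protein Plin2 0.54 ± 0.24. Cd36, the fatty acid receptor, was 9.76, 12.49 and 12.72 on NWD2 against 10.19 to 11.01 on NWD1, so NWD2 array 1 went against the other NWD2 arrays. Its difference was 0.94 ± 0.67, and it was 1.88 without NWD2 array 1, 0.52 without NWD2 array 2 and 0.40 without NWD2 array 3. The list's count above 0 ranged from 19 to 21 over the scaling, score and leave-out alternatives.

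Of 23 tested genes of cytochromes P450 and conjugation 15 were above 0 (52.6% of all genes), 2 at an unadjusted p under 0.05 (1.12%), with a median of 0.24. Without NWD2 array 1, 21 of the 23 were above 0 (4754 of all 8822 genes). Of 10 retinoid genes 9 were above 0 (52.6% of all genes). At an unadjusted p under 0.05, 2 were above (1.12%) and 1 was below (1.63%). None was above at that p with the score as a covariate, nor without NWD1 array 1, 3 or 4 or NWD2 array 2 or 3. Cyp2j6, an epoxygenase of polyunsaturated fatty acids, was 11.38, 13.00 and 13.35 on NWD2 against 10.63 to 11.41 on NWD1 (1.62 ± 0.55). The carboxylesterase Ces1g was 8.63 to 9.27 against 7.26 to 8.16 (1.19 ± 0.43), and the glucuronosyltransferase Ugt2b5 10.10 to 11.09 against 9.28 to 9.92 (1.15 ± 0.66). Reg3a, an antimicrobial lectin, was 13.67, 14.05 and 14.11 on NWD2 against 11.85 to 12.67 on NWD1 (1.62 ± 0.62). Of the Reg and defence list 5 of 8 were above 0, near the 52.6% of all genes, and 1 of them, Reg3a, had an unadjusted p under 0.05. Without NWD2 array 1, 3 of the 8 were above 0 (4754 of all 8822 genes). The retinoic acid enzyme Aldh1a1 gave 1.19 ± 0.66, which like Ugt2b5 did not reach an unadjusted p of 0.05, and the retinol dehydrogenase Rdh7 1.05 ± 0.52. Bco1, which cleaves beta-carotene, went the other way at -2.09 ± 0.81, with overlapping groups. None of these passed the adjustment (limma adjusted p = 1 for each).

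The other genes among the 10 smallest p-values upward were Cttnbp2, Pramel29, Dab1, Anxa13, Hibadh, Gabre, Daglb and Rbm12b1. Anxa13, an annexin of the enterocyte membrane, was 14.03 to 14.60 on NWD1 and 14.64, 15.01 and 14.95 on NWD2 (0.59 ± 0.19). Hibadh, an enzyme of valine breakdown, gave 0.43 ± 0.14, and Daglb, a diacylglycerol lipase, 0.95 ± 0.33. Dab1, an adaptor of reelin signalling, gave 0.94 ± 0.30 with overlapping groups, and Rbm12b1, an RNA-binding protein, 1.05 ± 0.36, also overlapping. Cttnbp2 (1.73 ± 0.45) and Gabre (1.13 ± 0.36) were blank on NWD1 array 3 and low elsewhere. Pramel29 gave 2.08 ± 0.53, from 5.71 to 7.54 on NWD1 and 7.84 to 9.49 on NWD2. All but Pramel29 and Cttnbp2 (limma adjusted p = 0.519 each) had an adjusted p of 1.

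Of the 10 genes lower in NWD2 with the smallest p-values, 2 lay outside the groups above. Ceacam10, a secreted member of the carcinoembryonic antigen family, was 10.75, 11.14, 10.59 and 10.70 on NWD1 and 7.66, 8.57 and 8.22 on NWD2. The groups were far apart, with a difference of -2.65 ± 0.63 (limma adjusted p = 0.242), and another probe set gave -2.68. Ain76A villi were split, at 8.68 and 8.88 on arrays 1 and 2 and 10.57 and 11.29 on arrays 3 and 4. In crypts Ceacam10 differed by -3.83 ± 0.58. Fitted on the 7 arrays alone it was the single gene to pass (limma adjusted p = 0.014). Noct, a clock-linked deadenylase, was 11.31, 11.53, 12.64 and 12.61 on NWD1 and 10.18, 10.68 and 10.85 on NWD2, a difference of -1.45 ± 0.35 (limma adjusted p = 0.242).

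Immediate early genes, which cells switch on within minutes of a stimulus, had lower levels together, and the difference depended on single arrays. Of 15 tested all 15 were below 0 and 6 had an unadjusted p under 0.05 (1.63% of all genes), with a median of -0.66. For 1 of the 15 all NWD2 arrays lay below all NWD1 arrays, against 2.76% of all genes. Dusp1, a MAP kinase phosphatase, was 9.29, 9.66, 10.77 and 11.88 on NWD1 and 8.06, 9.73 and 9.62 on NWD2 (-1.26 ± 0.43). NWD1 array 4 was the highest and NWD2 array 1 the lowest for Dusp1, Fos (-0.94 ± 0.34), Atf3 (-1.13 ± 0.43), Btg2 (-0.95 ± 0.43), Zfp36 (-0.66 ± 0.32) and Egr1 (-0.72 ± 0.35). Without NWD1 array 4 the median of the list was -0.31, and without NWD2 array 1 it was also -0.31. In neither case did a member reach an unadjusted p of 0.05. Without NWD1 arrays 1 and 2 and NWD2 array 1 together, which keeps NWD1 array 4, the median was -0.725. Of 16 tested 4 were below at an unadjusted p under 0.05, against 165 of all 8544 genes in that setting. For 12 of the 16 the groups did not overlap, against 23.2% of all genes below. With the score as a covariate 4 of 15 were below at an unadjusted p under 0.05, against 142 of all 8650 genes. The median of the list was then -0.59.

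**Figure D4:**
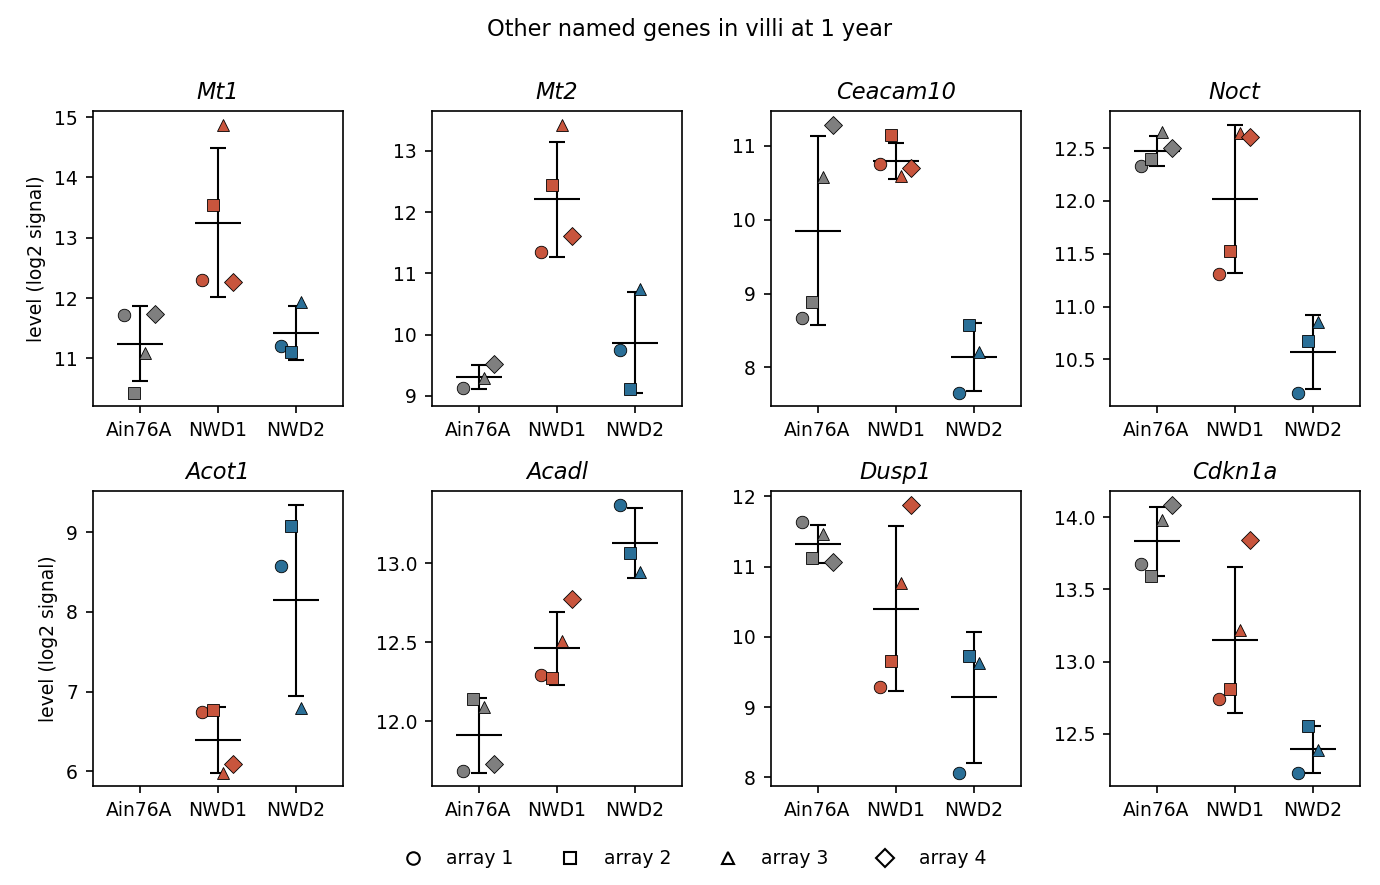
Normalized log2 levels of Mt1, Mt2, Ceacam10, Noct, Acot1, Acadl, Dusp1 and Cdkn1a on each villus array at 1 year, with the mean and SD as bars. No NWD2 array overlaps NWD1 for the genes shown except Dusp1. Acot1 has no Ain76A points because it was blank there, and Mt2 has 3.

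Enterocyte markers are the check on the bulk of the tissue. Of 33 tested 26 were below 0 (4104 of all 8650 genes), with a median of -0.20. Without NWD2 array 1 the median was 0.06 with 20 above 0 (4754 of all 8822 genes). Ada, adenosine deaminase of the villus tip, gave -1.45 ± 0.55 with overlapping groups. Cell cycle genes had 24 of 27 below 0 (4104 of all 8650 genes) with a median of -0.33. At an unadjusted p under 0.05, 1 was below (1.63% of all genes). Without NWD2 array 1, 13 of 27 were below at an unadjusted p under 0.05, against 142 of 8822 genes in all, and the median was -0.78, and that array carried the highest mean cell cycle level of the 7 (9.85). Without NWD2 array 2 or 3 the median was -0.02 or -0.10. Of 24 oxidative phosphorylation genes 22 were above 0 under quantile normalization (52.6% of all genes) and 14 under the deposited scaling (4110 of all 8648 genes). The medians were 0.13 and 0.02. Without NWD2 array 1, 9 of the 24 were above 0 (4754 of all 8822 genes). The tight junction gene Cldn4 gave -1.58 ± 0.51 with overlapping groups. Of the pancreatic acinar markers, 7 of 12 were blank on all 7 arrays, and Pnliprp2, a lipase on that list, was 8.49 to 9.45 on NWD2 against 9.72 to 11.72 on NWD1 (-1.59 ± 0.59).

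**Figure D5:**
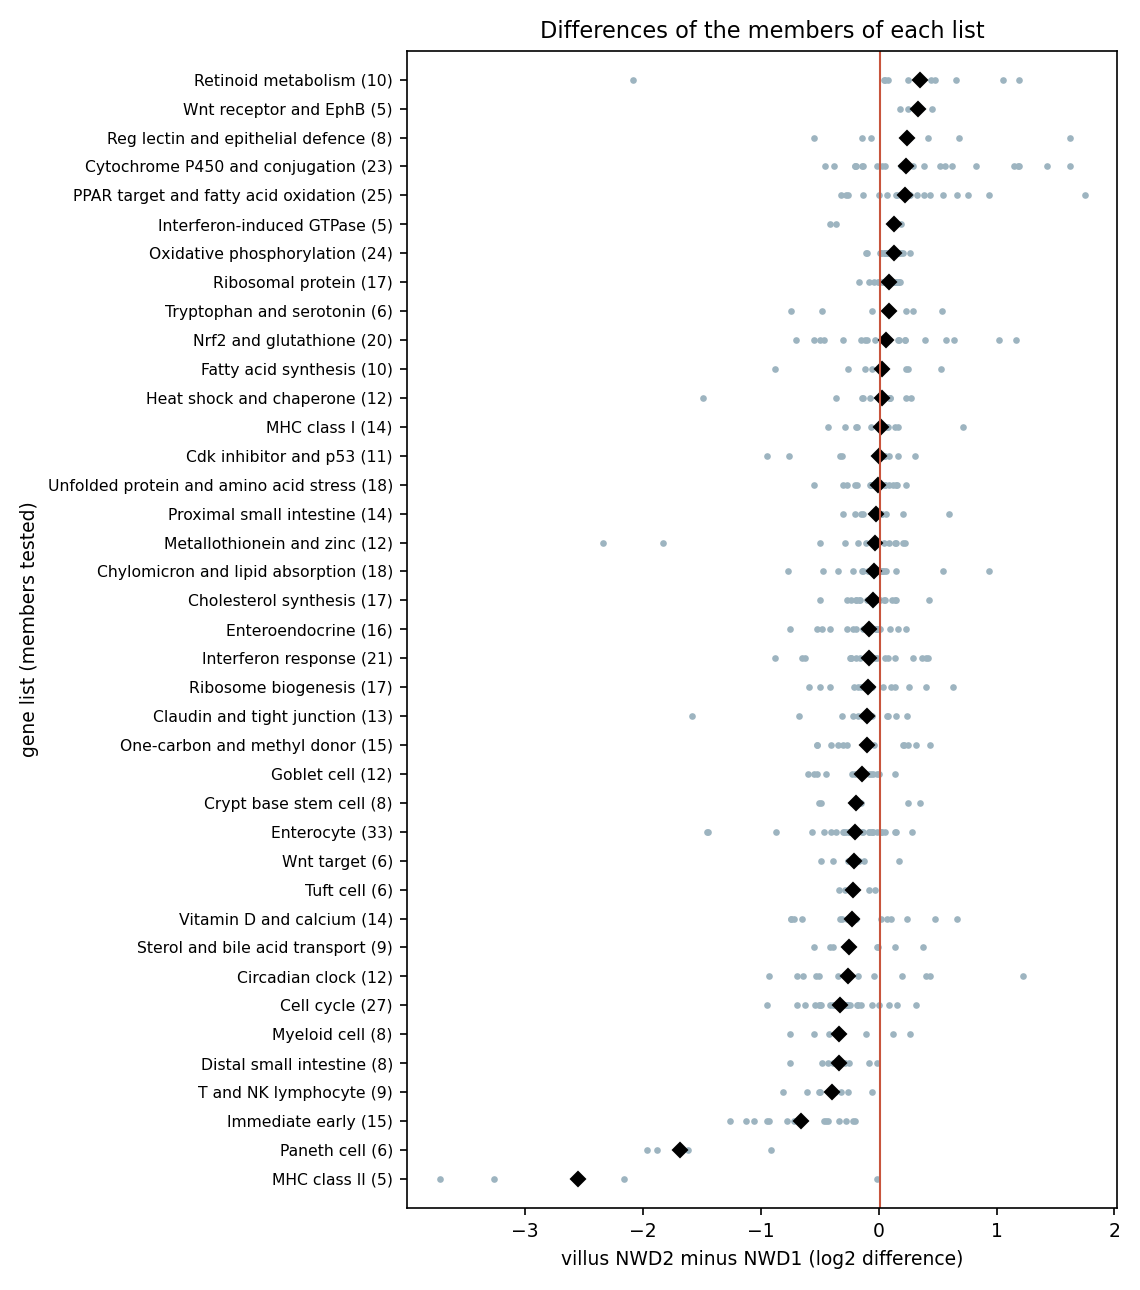
Log2 differences of villus NWD2 minus NWD1 for the tested members (points) and the median (diamonds) of each gene list with at least 5 tested members, with the number tested in brackets. The vertical line is the median of all genes tested, 0.01. MHC class II, Paneth cell and immediate early lists have the lowest medians, at -2.55, -1.69 and -0.66.

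The difference between the diets in villi was set against that in crypts by an interaction in the same model, which takes villus and crypt arrays as independent. Of 8323 genes none passed (0%), and 203 had an unadjusted p under 0.05. With the replicate number as a block across villus and crypt, fitted on the 4 groups, 0 of 8322 passed and 1051 had an unadjusted p under 0.05, against 643 on the same arrays without the block. The 5 smallest p-values with a more negative villus difference belonged to Rab30, Cidec, Efr3b, Slc16a3 and Smad7. Rab30, a small GTPase, differed by -1.61 in villi and 1.41 in crypts, and Cidec, a lipid droplet protein, by -0.97 and 0.93. Slc16a3, a lactate exporter, gave -0.75 and 0.97, Smad7, an inhibitor of TGF-beta signalling, -0.72 and 0.49, and Efr3b -0.55 and 0.78. In the other direction stood Cttnbp2 (1.73 and -0.34), Sorl1 (0.30 and -0.84), Zfp930 (0.69 and -0.68), A230072C01Rik (0.83 and -0.20) and Hibadh (0.43 and -0.06). The lowest limma adjusted p of the interaction was 0.997, and 0.359 with the block on the 4 groups.

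Some probe sets had values on all arrays of NWD1 or NWD2 and were blank on all of the other. There were 47 measured on all 4 NWD1 and no NWD2 arrays, and 47 the other way round, while 17042 were measured on all 7. The highest in the NWD1 set belonged to Dot1l (mean 9.66), a histone methyltransferase, Qsox1 (9.51), Ap5z1 (9.30), Vps45 (8.93) and C2 (8.81), a complement protease. The highest in the NWD2 set belonged to Ankrd54 (8.68), Gm19696 (8.58), Pik3r1 (8.38), Dtd2 (7.94) and Eif4e2 (7.52). The median normalized level of the 7 arrays was 8.81 to 9.11, above each of these NWD2 means. All 10 also had values on at least 1 Ain76A villus array, Dot1l and Qsox1 on all 4. Of the 10 genes, 7 had another probe set that was measured on the 7 arrays at least in part. The sources used here do not say why a cell is blank, so no fold was computed for them.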

How the data were processed

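The deposited value table holds log2 expression values per probe set and array, made by the authors with GCOS per the submitters' processing notes. The direction is plain signal. The sources used here do not state the authors' scaling between arrays (medians of the 7 columns 8.76 to 8.95), nor why 55.2% of cells are blank. Blanks were left blank. Trimmed means differed 1.46-fold between arrays, so the 47 arrays were quantile-normalized on the 8350 probe sets measured on every array. Probe sets above the array median on at least 3 arrays were kept (30344), and the probe set with the highest mean stood for each of 13506 genes.

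Symbols came from the platform table: 34945 probe sets had 1 symbol, 932 several and 9160 none. A one-way limma 3.58.1 model (R 4.3.3) with a trended prior was fitted to the 12 groups. Genes measured on at least 3 arrays in each of the groups compared were tested at a Benjamini-Hochberg adjusted p of 0.05. Array measures were tested by exact permutation. The fit was tested on simulated data. Genes named were the 10 smallest p-values in each direction, all members of 4 lists, up to 6 of each other list, Cdkn1a, Apc, the 5 smallest interaction p-values each way and the 5 highest one-diet probe sets each way. The members and the 48 gene lists (775 of 865 genes matched) were chosen with earlier results of these data known. Leaving out arrays, other scalings, filters, fits and a replicate block were alternatives. The number of arrays limits the precision.

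Over all genes, replicate numbers did not pair NWD1 with NWD2 villi. Correlations of same-numbered villus and crypt arrays went either way on NWD1 and were positive on NWD2. For Mt2 on NWD1, a gene picked after its values were seen, same-numbered villus and crypt arrays lay close together. The labels do not say that a shared number is 1 animal, so villus and crypt differences may not be independent.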

Additional observations from a re-analysis of the deposited data

Results flagged for a closer look

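Single arrays stood apart for 2 of the 60 named genes that could be examined in the 4 NWD1 villus arrays, by the gap to the nearest array over the group's range against Dixon's 95% critical value, which chance exceeds in about 1 of 20 groups. Egr1, an immediate early transcription factor, was 11.694 on NWD1 array 4 against 9.862 to 10.109 on the other 3 NWD1 arrays. Fzd5, a Wnt receptor, was 11.661 on NWD1 array 1 against 11.097 to 11.163 on the other 3.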

How the results depend on the processing

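The count of genes passing an adjusted p of 0.05 was 0, and it was 0 in 17 of 23 alternatives, among them the deposited scaling, no filter, no trend, the score as a covariate and the probe set measured on most arrays. It was 1 (Ceacam10, lower) in a fit to the 7 arrays alone, 4 (Cd74, H2-Aa, Endod1 and H2-DMa, lower) with only the 1-year diet groups, 9 (2 higher, 7 lower, of 13506 tested) with blanks at the 5th percentile, and 4 with every probe set tested. Leaving out 1 array gave 0 to 2: 2 (Cd74 and H2-Aa) without NWD2 array 2 and 1 (Acot1) without NWD2 array 3. The cause was not tested. With the replicate number as a block 0 genes passed. Same-numbered villus arrays of the 2 diets correlated at 0.115, -0.317 and 0.034, so the numbers were not treated as pairs. Same-numbered villus and crypt arrays correlated at -0.115, 0.242, 0.108 and -0.159 on NWD1 and at 0.455, 0.233 and 0.452 on NWD2. The numbers on NWD1 thus went either way, while all 3 on NWD2 were above 0.1. The labels do not settle whether they pair. For the villus against crypt difference 0 passed under 2 other choices of scaling or arrays and 7 leave-outs (0 to 0), and 0 with a replicate block across villus and crypt on the 4 groups or on the 1-year diet groups (1051 and 1210 genes at an unadjusted p under 0.05), a fit added after seeing the data. The score difference was -0.219 to 0.6485 when 1 array was left out, negative without NWD2 array 1, and the measured probe set difference 60 to 447. The alternatives of the villus count added after seeing the data were the array median over measured values alone and leaving out NWD2 array 1 with the score as a covariate, and both gave 0.

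Of 1366 pairs of a named gene and an alternative, 1344 kept their direction and 22 in 7 genes did not, the cause not tested. Ctss was 0.012 with the score, 0.022 without NWD1 array 1, 0.292 without NWD2 array 1 (0.292 with the score too) and 0.280 without the 3 arrays with a score above -1. Vdr was -0.012 without NWD1 array 2 and -0.008 without NWD2 array 3. Slc34a2 was -0.005 without NWD2 array 2 and -0.108 without array 3, and Cldn2 0.150 without NWD2 array 3. Cyp27a1 was 0.383 without NWD2 array 1, 0.30 with the score too and 0.262 without the 3 arrays. Cyp3a11 was 0.060 and 0.033 without NWD2 array 1 and without the 3 arrays. Apc was 0.032 with the replicate block, 0.012 with the score, 0.015 without NWD1 array 1, 0.032 without NWD1 array 4, 0.124 without NWD2 array 1, 0.117 with the score too and 0.070 without the 3 arrays. At the other end, leaving out NWD2 array 3 gave -0.241 for Ctss, -0.869 for Cyp27a1, -0.33 for Cyp3a11 and -0.146 for Apc, leaving out NWD2 array 1 gave 1.55 for Slc34a2 and -1.08 for Cldn2, and leaving out NWD1 array 3 gave 0.24 for Vdr.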
